A study of Mus musculus with 5 samples.

Results

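Contractile genes of smooth muscle were described in Prx1-lineage cells sorted from mouse hindlimb muscle before and after bone injury. The genes were Acta2, Actg2, Myh11, Myl9, Mylk, Tpm1, Tpm2, Cnn1, Cnn2 and Tagln, 10 of the 31055 features in the deposited count matrices, chosen by name for their place in the smooth muscle contractile apparatus. All 10 passed the filter of a mean of at least 10 CPM (counts per 1000000 counts) over the 5 libraries, as did 7459 features in all. The mice were Prx1Cre;mTmG animals on a C57Bl/6 background, in which Cre driven by the limb mesenchyme promoter Prx1 switches a membrane Tomato reporter to membrane GFP. GFP+ cells of skeletal muscle were sorted by FACS and profiled by single-cell RNA sequencing (scRNAseq) with 10x Genomics 3′ chemistry. The 5 libraries covered uninjured muscle (d0), d3 and d5 after a non-stabilized tibial fracture, and d3 and d5 after polytrauma, in which the same fracture was combined with a mechanical injury of the muscle. Each condition was 1 library made from 2 pooled mice, so no difference between conditions could be tested against animals: the intervals given are 95% intervals for counting error only.

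Conditions of 2 libraries were taken from the cell numbers in the study's source data and not from the deposited labels. Library SC5 is deposited as d5 post-fracture and is called d3 polytrauma here, and library SC9 is deposited as d3 post-polytrauma and is called d5 fracture here. The directions given for these 2 libraries rest on that choice. Library SC3 was d0, SC4 was d3 fracture and SC10 was d5 polytrauma under both readings.

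Smooth muscle contracts when myosin heavy chain pulls on filaments of actin. The regulatory light chain of myosin is switched on by a calcium- and calmodulin-dependent kinase, and tropomyosins, calponins and transgelin lie along the actin filament. In skeletal muscle the vessel wall is the main site of these proteins, in the smooth muscle cells of arterioles and, at varied levels, in pericytes, and fibroblasts that turn into myofibroblasts also make smooth muscle actin. Many of the genes are targets of serum response factor, which binds a short DNA element named the CArG box.

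Promoter sequences are shown because CArG boxes are the element these genes are known for. Acta2, by which myofibroblasts are usually recognised, is shown as a window without a perfect match, beside Myl9 and Cnn2. RefSeq sequence (GRCm38.p6) from 250 bases before to 50 bases after the start site was at hand for 7 of the 10 genes, with no entry for Tagln, Actg2 and Myh11. The search was for the perfect CArG box, whose consensus reads the same on both strands. One box was found in the windows of Myl9 and Cnn2, which is 2 of 7 genes, against 535 of 32851 promoters in all (1.63%). The box is in capitals, starting 161 bases before the start site of Myl9 (chr2:156775214-156775513, forward strand) and 56 bases before that of Cnn2 (chr10:79988350-79988649, forward strand). The Acta2 window (chr19:34255324-34255623, reverse strand) held no perfect match and has no capitals. The search passed over near matches, and ccctatatgg and ccttgtttgg in the Acta2 window resemble the consensus. The lack of a perfect match is therefore not a lack of CArG-like elements.
Myl9: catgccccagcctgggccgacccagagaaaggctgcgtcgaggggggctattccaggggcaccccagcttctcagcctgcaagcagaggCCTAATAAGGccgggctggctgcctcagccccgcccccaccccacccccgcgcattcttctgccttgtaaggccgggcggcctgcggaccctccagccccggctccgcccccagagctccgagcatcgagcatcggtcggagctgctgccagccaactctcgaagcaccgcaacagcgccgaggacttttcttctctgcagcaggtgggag
Cnn2: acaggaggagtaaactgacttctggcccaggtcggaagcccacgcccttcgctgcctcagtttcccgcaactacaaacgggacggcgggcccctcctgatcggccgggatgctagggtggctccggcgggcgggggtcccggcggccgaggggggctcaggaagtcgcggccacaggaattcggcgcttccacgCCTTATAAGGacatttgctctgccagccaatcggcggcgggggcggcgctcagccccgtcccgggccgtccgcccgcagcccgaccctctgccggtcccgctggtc
Acta2: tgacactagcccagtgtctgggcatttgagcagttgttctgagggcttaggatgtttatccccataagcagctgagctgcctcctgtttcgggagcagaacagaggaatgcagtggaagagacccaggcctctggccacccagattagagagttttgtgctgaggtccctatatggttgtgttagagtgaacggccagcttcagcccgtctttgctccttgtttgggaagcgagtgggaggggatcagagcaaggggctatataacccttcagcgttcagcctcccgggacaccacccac
A match describes letters in this window and no binding was measured.

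After cells with 350 to 8000 genes, under 20% mitochondrial counts and at least 1000 unique molecular identifiers (UMIs, the counted molecules) were kept, 29831 of 34439 barcodes remained, from 1468 in the d5 fracture library to 11941 in the d5 polytrauma library. Depth differed: the median UMI count of a kept cell was 3640 at d0, 17963 at d3 fracture, 34949 at d5 fracture, 15688 at d3 polytrauma and 15753 at d5 polytrauma. Between 97.3% and 99.2% of cells held an EGFP UMI, and 0 to 2 tdTomato UMIs were counted in each library. The 5 myogenic markers summed to between 0.287 and 3.72 CPM in each library and the 7 skeletal fibre markers to between 6.4 and 26.8 CPM. Markers of muscle fibres and their precursors were thus low but not absent. Actg2, the sparsest of the 10 genes, had a mean of 14.6 CPM over the libraries. Barcodes of d0, d3 fracture and d3 polytrauma came from another barcode set than those of both d5 libraries, and library preparation therefore cannot be told apart from day 5. Libraries also shared barcodes, 944 between both d5 libraries and 405 to 525 between pairs of the other 3. In the d5 fracture library 869 of the 1468 kept cells carried a barcode that was also in another library. Of these, 11 held under 10 times the UMIs of the same barcode elsewhere. In the d5 polytrauma library this was so for 338 of 342 such cells.

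Cells were divided by Rgs5, a regulator of G-protein signalling that marks pericytes and other mural cells, at 3 UMIs. Rgs5+ cells numbered 72 at d0, 77 at d3 fracture, 31 at d5 fracture, 43 at d3 polytrauma and 95 at d5 polytrauma. This was 1.55% (1.22 to 1.95, exact binomial), 1.38% (1.09 to 1.72), 2.11% (1.44 to 2.98), 0.693% (0.502 to 0.933) and 0.796% (0.644 to 0.972) of the cells. The limit left cells with contractile genes on its lower side: at d0 the 10 genes made up 2.72% of the UMIs of the 29 cells with 2 Rgs5 UMIs and 2.54% in the 15 cells with 3. The Rgs5-low cells of d0 were a mixture. Of the d0 cells, 639 (13.8%, interval 12.8 to 14.8) were Rgs5-low and held at least 3 UMIs of Myh11, the smooth muscle myosin heavy chain, whereas 39, 12, 5 and 18 cells (0.698%, 0.817%, 0.0806% and 0.151%) did so in the d3 fracture, d5 fracture, d3 polytrauma and d5 polytrauma libraries. Most values below are therefore also given for Rgs5-low cells with under 3 Myh11 UMIs, a division added after the data were seen. Myh11 itself is then fixed by the division and is left out of the counts of higher and lower genes in that class. It stays in sums over all 10 genes and in the number of genes detected in a cell. Differences between Myh11+ and Myh11-low cells in those values are therefore fixed in part by the division. The share of Myh11+ cells in a sorted and filtered library need not be their share in the muscle.

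Counts of the contractile genes lay in different classes of cells before and after injury. Myh11+ cells held 86.8% of all contractile-gene UMIs at d0, the Rgs5+ cells 4.72% and all other cells 8.54%. At d3 fracture the other cells held 93.9%, and they held 78.4% at d5 fracture, 96.1% at d3 polytrauma and 97.7% at d5 polytrauma. Myh11, which sets the classes, is part of these sums. By gene the share of Myh11+ cells at d0 ran from 28.2% (Cnn2) to 92.2% (Myh11), and it was 88.3% for Acta2. The 10 genes took 4.12% of the UMIs of Myh11+ cells at d0, 3.08% at d3 fracture, 5.50% at d5 fracture, 2.35% at d3 polytrauma and 1.53% at d5 polytrauma. In the Myh11-low cells they took 0.0825%, 0.234%, 0.161%, 0.113% and 0.397% in the same order, so the lowest value was at d0 and the highest at d5 polytrauma. In a sum over the Rgs5-low cells alone, fewer smooth muscle cells and less RNA per cell cannot be told apart.

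**Figure D1:**
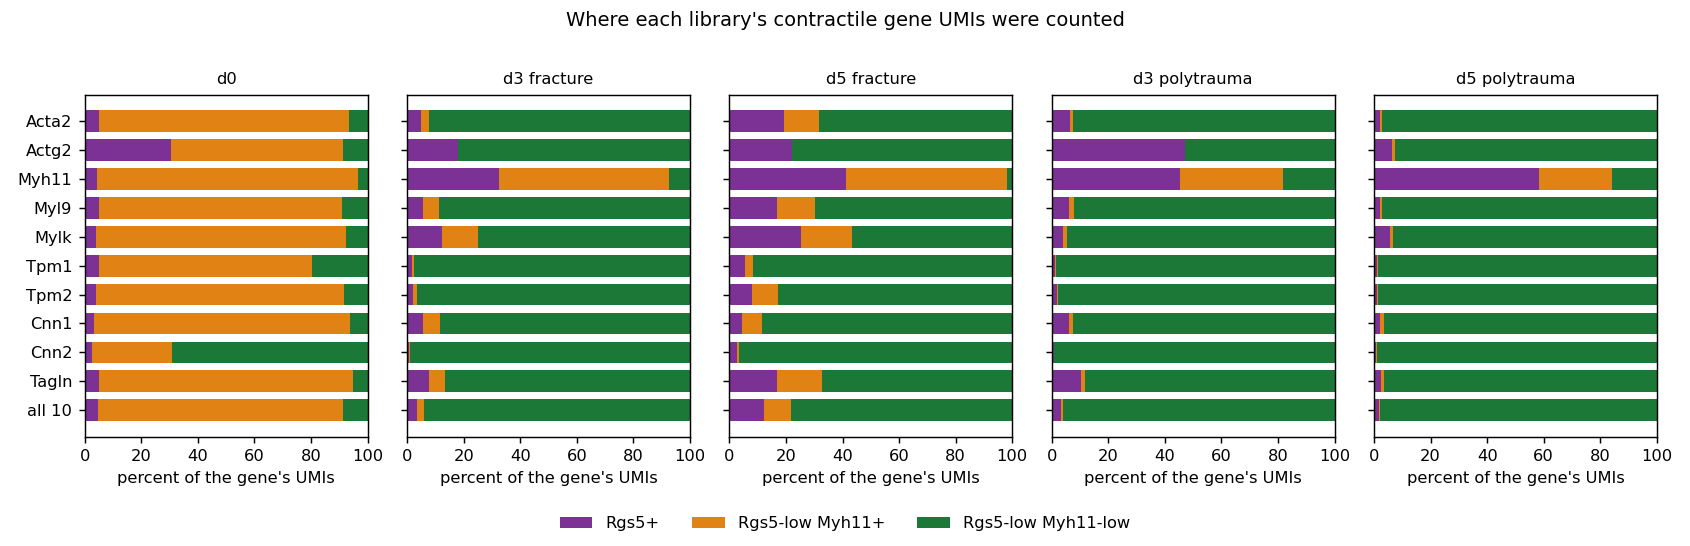
Share of each gene's UMIs (percent, horizontal axis) that lay in Rgs5+ cells, Rgs5-low Myh11+ cells and Rgs5-low Myh11-low cells, 1 panel for each library. Myh11+ cells hold most UMIs of most genes at d0, with 86.8% over all 10 genes, and the Myh11-low cells hold between 78.4% and 97.7% in the 4 libraries after injury.

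Among the actins, Acta2 (alpha smooth muscle actin, ENSMUSG00000035783, chr19:34241090-34255590, reverse strand of GRCm38) is the filament protein of vascular smooth muscle and of myofibroblasts. In Rgs5-low cells Acta2 was at 2325 CPM at d0, 740 at d3 fracture, 395 at d5 fracture, 237 at d3 polytrauma and 1207 at d5 polytrauma. The d0 library was the highest and d3 polytrauma the lowest, and no neighbours in that order had overlapping intervals. With the Myh11+ cells left out, Acta2 was at 198.5 CPM (191 to 206) at d0, 719 (714 to 724) at d3 fracture, 336 (331 to 341) at d5 fracture, 235 (232 to 238) at d3 polytrauma and 1201 (1196 to 1206) at d5 polytrauma. The d0 library was then the lowest of the 5 and d5 polytrauma the highest. The log2 ratio of d3 fracture to d0 was -1.65 (-1.67 to -1.63) in all Rgs5-low cells and 1.86 (1.80 to 1.91) without the Myh11+ cells, so its sign turned. In Rgs5+ cells Acta2 was at 8385 CPM (8029 to 8753) at d0, 6270.5 (6073 to 6473) at d3 fracture, 7325 (7120.5 to 7533) at d5 fracture, 4094 (3900.5 to 4295) at d3 polytrauma and 3852 (3746 to 3960.3) at d5 polytrauma. A single cell held 33.9% of these Acta2 UMIs at d3 polytrauma. The median over single Rgs5+ cells was 7896, 5275, 4881, 2013 and 2130 CPM in the same order. Thinned to 1000 UMIs, 12.7% of the Myh11-low cells held an Acta2 UMI at d0, 35.8% at d3 fracture, 15.3% at d5 fracture, 14.6% at d3 polytrauma and 50% at d5 polytrauma, and 33.0%, 80.4%, 65.4%, 54.8% and 87.2% did so before thinning. Cells with at least 3 hematopoietic-marker UMIs served as the background, although the markers include Cd68 and Csf1r. At d5 polytrauma 296 and 250 Rgs5-low cells held a UMI of these, beside 68 for Tyrobp. Whether the background held other cells or doublets was not tested. Of the background cells after thinning, 2 of 6 at d0, 2 of 26 at d3 fracture, 0 of 9 at d5 fracture, 12 of 107 at d3 polytrauma and 10 of 39 at d5 polytrauma held an Acta2 UMI. These cells had median depths from 2652 to 32816 UMIs before thinning. The shares at d0, d5 fracture and d3 polytrauma lay inside the intervals of that background (4.33 to 77.7%, 0 to 33.6% and 5.93 to 18.8%) and are not distinguished from it at this depth. The shares at d3 fracture and d5 polytrauma lay above its intervals (0.946 to 25.1% and 13 to 42.1%). By level, Acta2 in the background cells of d5 polytrauma was at 1207 CPM (1120 to 1300), beside 1201 CPM in its Myh11-low cells. Detection and level thus gave different readings there. At d3 fracture the background was at 210 CPM (158 to 274), beside 719 CPM. With at least 10 hematopoietic-marker UMIs the background was at 426 CPM at d5 polytrauma and 24.35 CPM at d3 fracture.

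Actg2 (gamma smooth muscle actin, ENSMUSG00000059430, chr6:83512905-83536265, reverse strand), the actin of visceral smooth muscle, was sparsely counted. In Rgs5-low cells it was at 1.86 CPM (1.27 to 2.63) at d0, 14.7 (14 to 15.5) at d3 fracture, 16.1 (15.1 to 17.3) at d5 fracture, 1.98 (1.72 to 2.27) at d3 polytrauma and 26.8 (26.1 to 27.6) at d5 polytrauma. The d0 value rested on 32 UMIs, of which 28 were in Myh11+ cells. Both d3 polytrauma and d0 lay far below the other libraries, with overlapping intervals between them. In Rgs5+ cells Actg2 was at 56.2 CPM (30.7 to 94.3) at d0, 527 (471 to 588) at d3 fracture, 354 (310.3 to 402) at d5 fracture, 442 (380.3 to 512) at d3 polytrauma and 280.1 (252 to 310.4) at d5 polytrauma, again lowest at d0, whereas Acta2 was highest there. A single cell held 69.1% of the Actg2 UMIs of the Rgs5+ cells at d3 polytrauma. That order depends on the Rgs5 limit. With Rgs5 called after thinning, Actg2 was lowest at d3 polytrauma, at 46.5 CPM beside 79.0 CPM at d0. With at least 10 Rgs5 UMIs it was at 209 CPM at d3 polytrauma and 84.9 CPM at d0. Acta2 and Actg2 encode nearly identical proteins, and the study's methods name Cell Ranger at its default settings, which count only reads placed in a single gene. Reads from sequence that both genes share could therefore be lost from the counts of both. Whether this lowered the Actg2 counts was not tested, and those counts are uncertain.

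Myh11 (ENSMUSG00000018830, chr16:14194535-14291372, reverse strand), the heavy chain of smooth muscle myosin, is the most specific of the 10 genes to differentiated smooth muscle. In Rgs5-low cells it was at 488 CPM (478 to 499) at d0, 3.24 (2.90 to 3.62) at d3 fracture, 16.4 (15.3 to 17.6) at d5 fracture, 0.612 (0.471 to 0.783) at d3 polytrauma and 1.26 (1.11 to 1.42) at d5 polytrauma. The d0 library stood far above the other 4, with a log2 ratio of d3 fracture to d0 of -7.24 (-7.40 to -7.08), and the intervals of all neighbours were apart. Those intervals do not cover the sampling of cells, and few cells carried Myh11 after injury. At d5 fracture 12 Rgs5-low Myh11+ cells held 57.0% of the library's Myh11 UMIs, and at d3 polytrauma 5 such cells held 36.5%. In Rgs5+ cells Myh11 was at 1569 CPM (1418 to 1733) at d0, 257 (218 to 301) at d3 fracture, 882 (812 to 956) at d5 fracture, 127 (94.9 to 167) at d3 polytrauma and 271 (243 to 301) at d5 polytrauma. The same library was highest in both classes, and 46 of the 72 Rgs5+ cells at d0 held at least 3 Myh11 UMIs, against 17 of 77 at d3 fracture, 26 of 31 at d5 fracture, 7 of 43 at d3 polytrauma and 30 of 95 at d5 polytrauma. Depth differed between these cells too, with medians from 3187 UMIs at d0 to 19183 at d5 fracture.

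Myl9 (ENSMUSG00000067818, chr2:156775420-156781658, forward strand) encodes the regulatory light chain of smooth muscle and non-muscle myosin. Its level in Rgs5-low cells was 1345 CPM at d0, 177 at d3 fracture, 115 at d5 fracture, 58.7 at d3 polytrauma and 264 at d5 polytrauma. Myl9 in the Myh11-low cells alone was 152 CPM (146 to 159) at d0, 167 (165 to 169.8) at d3 fracture, 97.1 (94.4 to 99.9) at d5 fracture, 57.7 (56.2 to 59.1) at d3 polytrauma and 263 (261 to 265) at d5 polytrauma. The d0 level lay within the range of the injured libraries in the second case and above all of them in the first. The log2 ratio of d3 fracture to d0 was -2.92 (-2.95 to -2.90) in all Rgs5-low cells and 0.14 (0.07 to 0.20) without the Myh11+ cells, and the second value was -0.09 when each cell's CPM was averaged. Rgs5+ cells had Myl9 at 4756 CPM (4489.5 to 5035) at d0, 1751 (1647 to 1859) at d3 fracture, 1812 (1712 to 1918) at d5 fracture, 958 (866 to 1058) at d3 polytrauma and 839 (789.7 to 890.1) at d5 polytrauma, highest at d0 by a wide margin.

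Mylk (ENSMUSG00000022836, chr16:34745210-35002420, forward strand) encodes myosin light chain kinase, which phosphorylates the light chain and starts contraction. The study used Mylk as one of its pericyte markers. The Rgs5+ class here was set by Rgs5 alone. In Rgs5-low cells Mylk was at 476 CPM at d0, 22.5 at d3 fracture, 36.4 at d5 fracture, 29.0 at d3 polytrauma and 42.5 at d5 polytrauma. The d0 library stood apart, and the 4 injured libraries lay between 22.5 and 42.5 CPM. Mylk in the Myh11-low cells was at 46.1 CPM (42.6 to 49.7) at d0, 19.3 (18.5 to 20.2) at d3 fracture, 27.6 (26.1 to 29.1) at d5 fracture, 28.6 (27.5 to 29.6) at d3 polytrauma and 42.0 (41.1 to 42.9) at d5 polytrauma, where d0 and d5 polytrauma had overlapping intervals and d3 fracture was the lowest. Mylk was the only one of the 9 genes other than Myh11 that was at least 2-fold lower at d3 fracture than at d0 in those cells, at a log2 ratio of -1.25 (-1.38 to -1.12). The mural genes Notch3 and Pln in those cells were at 8.33 and 6.30 CPM at d0, beside 0.868 and 0.101 CPM at d3 fracture. The part of mural cells left in that class was not tested. In Rgs5+ cells Mylk was at 1377 CPM (1235 to 1530.5) at d0, 520.5 (465 to 581) at d3 fracture, 941 (868 to 1017) at d5 fracture, 301 (249.9 to 359) at d3 polytrauma and 393 (359.9 to 429) at d5 polytrauma.

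The tropomyosins lie along the actin filament and set which myosins can reach it. Tpm1 (ENSMUSG00000032366, chr9:67022590-67049406, reverse strand) and Tpm2 (ENSMUSG00000028464, chr4:43514711-43523765, reverse strand) also have non-muscle isoforms, which 3′ counts do not tell apart. Tpm1 in Rgs5-low cells was at 590.2 CPM at d0, 571 at d3 fracture, 611 at d5 fracture, 402 at d3 polytrauma and 1156 at d5 polytrauma. It was the one gene of the 10 for which d0 lay among the injured libraries, below both d5 libraries and above both d3 libraries, and the log2 ratio of d3 fracture to d0, -0.05 (-0.08 to -0.02), turned to 0.27 under median-of-ratios scaling and 0.08 under a mean over cells. In the Myh11-low cells Tpm1 was at 147 CPM (141 to 153) at d0, 567 (562 to 572) at d3 fracture, 594 (588 to 601) at d5 fracture, 401 (397 to 405) at d3 polytrauma and 1154 (1149 to 1158) at d5 polytrauma. In that class d0 was the lowest and d5 polytrauma 7.85 times as high. Cells with at least 3 hematopoietic-marker UMIs had Tpm1 at 555 CPM (468 to 653) at d5 fracture and 873 CPM (799 to 952.5) at d5 polytrauma.

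Tpm2 in Rgs5-low cells was at 1136 CPM at d0, 509.9 at d3 fracture, 268 at d5 fracture, 254 at d3 polytrauma and 609 at d5 polytrauma. The Myh11-low cells had Tpm2 at 119.8 CPM (114 to 126) at d0, 503 (498 to 507) at d3 fracture, 242 (238 to 246) at d5 fracture, 253 (249.7 to 256) at d3 polytrauma and 608 (604 to 611) at d5 polytrauma. The pattern resembled Acta2: d0 was the highest level in the first case and the lowest in the second, and d3 fracture and d5 polytrauma were the highest of the injured libraries. The log2 ratio of d3 fracture to d0 was -1.16 (-1.18 to -1.13) and, without the Myh11+ cells, 2.07 (2.00 to 2.14). Rgs5+ cells had Tpm1 at 2099 CPM at d0, 1514 at d3 fracture, 2704 at d5 fracture, 1349 at d3 polytrauma and 1803 at d5 polytrauma. Tpm2 in the same cells was at 3364 CPM at d0, 1757 at d3 fracture, 1814 at d5 fracture, 1203 at d3 polytrauma and 1073 at d5 polytrauma. Tpm1 was the one gene of the 10 that was highest at d5 fracture among the Rgs5+ cells.

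Calponins bind actin and slow the myosin motor. Cnn1 (ENSMUSG00000001349, chr9:22099216-22109630, forward strand), the smooth muscle calponin, was at 84.4 CPM at d0, 11.7 at d3 fracture, 22.5 at d5 fracture, 5.10 at d3 polytrauma and 28.8 at d5 polytrauma in Rgs5-low cells. The Myh11-low cells had it at 6.72 CPM (5.45 to 8.21) at d0, 10.9 (10.3 to 11.6) at d3 fracture, 20.9 (19.7 to 22.2) at d5 fracture, 5.03 (4.60 to 5.48) at d3 polytrauma and 28.4 (27.6 to 29.1) at d5 polytrauma, and d0 and d3 polytrauma had overlapping intervals there. Cnn2 (ENSMUSG00000004665, chr10:79988584-79996062, forward strand), the calponin of many non-muscle cells, went another way: in Rgs5-low cells it was at 66.2 CPM at d0, 222 at d3 fracture, 106 at d5 fracture, 114 at d3 polytrauma and 193 at d5 polytrauma. It was lowest at d0 and highest at d3 fracture whether or not the Myh11+ cells were counted, and its level at d0 without them was 50.1% of that in the Myh11+ cells, against 1.22% to 5.31% for the 8 other genes that the division does not fix. In Rgs5+ cells Cnn1 was at 205 CPM (152 to 269) at d0, 112 (87.0 to 142) at d3 fracture, 82.5 (62.2 to 107) at d5 fracture, 85.5 (59.6 to 119) at d3 polytrauma and 91.6 (75.9 to 109.6) at d5 polytrauma. A single cell held 26 of the 35 Cnn1 UMIs (74.3%) at d3 polytrauma, and the level there was 20.5 CPM when Rgs5+ cells had to hold at least 10 Rgs5 UMIs. Cnn2 in Rgs5+ cells at the limit of 3 Rgs5 UMIs was at 116 CPM (78.0 to 167) at d0, 270.1 (230.4 to 315) at d3 fracture, 220.5 (186 to 259) at d5 fracture, 215 (172 to 265) at d3 polytrauma and 235 (209 to 263) at d5 polytrauma, lowest at d0 with the intervals of the 4 injured libraries overlapping from one to the next. With at least 10 Rgs5 UMIs, or with Rgs5 called after thinning, Cnn2 was lowest at d3 polytrauma, at 180.5 and 130 CPM.

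Tagln (transgelin, or SM22 alpha, ENSMUSG00000032085, chr9:45929619-45936058, reverse strand) binds and bundles actin and is a common early marker of smooth muscle. In Rgs5-low cells Tagln was at 1133 CPM at d0, 123 at d3 fracture, 207 at d5 fracture, 38.1 at d3 polytrauma and 464 at d5 polytrauma. Myh11-low cells had Tagln at 76.9 CPM (72.4 to 81.6) at d0, 116 (114 to 118) at d3 fracture, 168 (164 to 172) at d5 fracture, 37.5 (36.4 to 38.7) at d3 polytrauma and 459 (456 to 462) at d5 polytrauma. It was lowest at d3 polytrauma in both cases, and in the Myh11-low cells its range of 12.2 times from lowest to highest was the widest after Myh11 and Actg2. In Rgs5+ cells Tagln was at 4178 CPM (3928 to 4440.3) at d0, 1680 (1578 to 1786) at d3 fracture, 3188 (3054 to 3327) at d5 fracture, 1105 (1005 to 1212) at d3 polytrauma and 1711 (1640.2 to 1783) at d5 polytrauma. A single cell held 36.7% of these Tagln UMIs at d3 polytrauma. Annotated genes on the opposite strand overlap Tagln and Mylk, and none of the 10 genes has an overlap on its own strand.

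**Figure D2:**
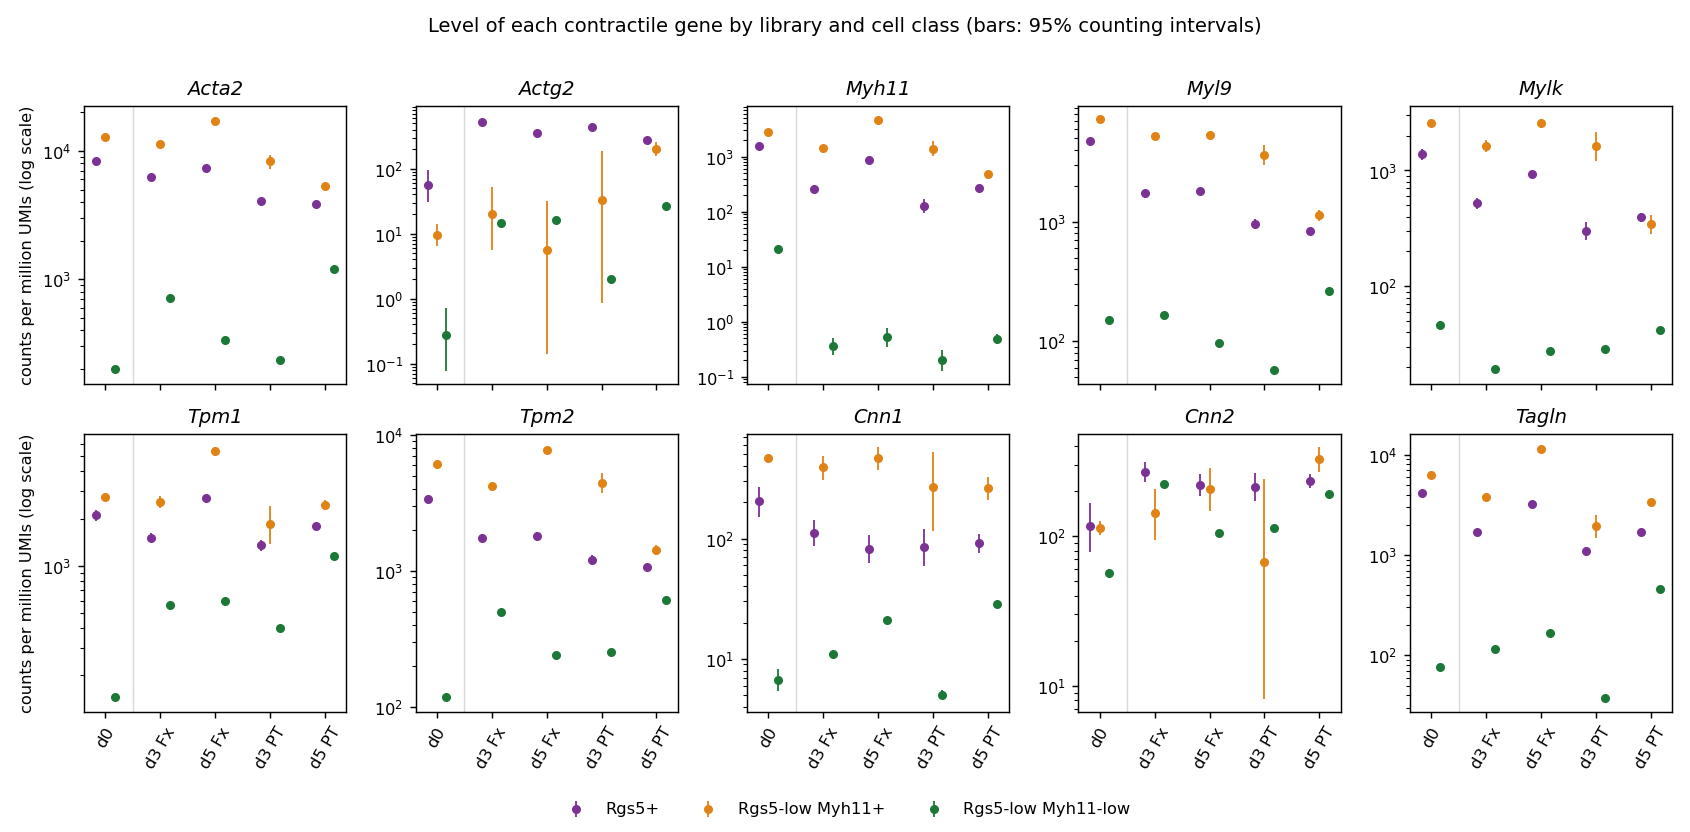
Level of each gene (CPM of summed UMIs, log axis) in the 5 libraries for the Rgs5+ cells and for Rgs5-low cells divided by Myh11, with bars for 95% counting intervals. Acta2 in the Rgs5-low Myh11-low cells is lowest at d0, at 198.5 CPM.

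The comparison of d3 fracture with d0 addresses what early fracture does to these genes in the muscle around the bone. A gene was counted as higher or lower where its levels differed at least 2-fold, since no test was possible. In Rgs5-low cells 7 of the 10 genes were lower, namely Myh11, Mylk, Tagln, Myl9, Cnn1, Acta2 and Tpm2, and 2 were higher, namely Actg2 and Cnn2. Over all 7459 features 22.4% were lower and 13.5% higher. The median log2 ratio of the 10 genes was -2.25, beside -0.17 over all features. Under median-of-ratios scaling the median over all features was 0.15, with 15.2% lower and 20.7% higher, and 6 of the 10 genes were lower and 2 higher. Without the Myh11+ cells 1 of 9 genes was lower and 5 were higher, namely Acta2, Actg2, Tpm1, Tpm2 and Cnn2, beside 21.7% and 12.7% of all features, and the median over those 9 genes was 1.86. Removal of cells with at least 2 UMIs over the mural genes Notch3, Des and Pln together, in place of the Myh11 division, left 2 of 10 lower and 4 higher, beside 21.8% and 12.7%, with a median of 0.36. Of the 7 genes that were lower with the Myh11+ cells in the sum, Myh11 aside, Mylk alone was still at least 2-fold lower without them. Notch3 and Pln were also lower at d3 fracture in the Myh11-low cells, and the part of remaining mural cells was not tested.

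**Figure D3:**
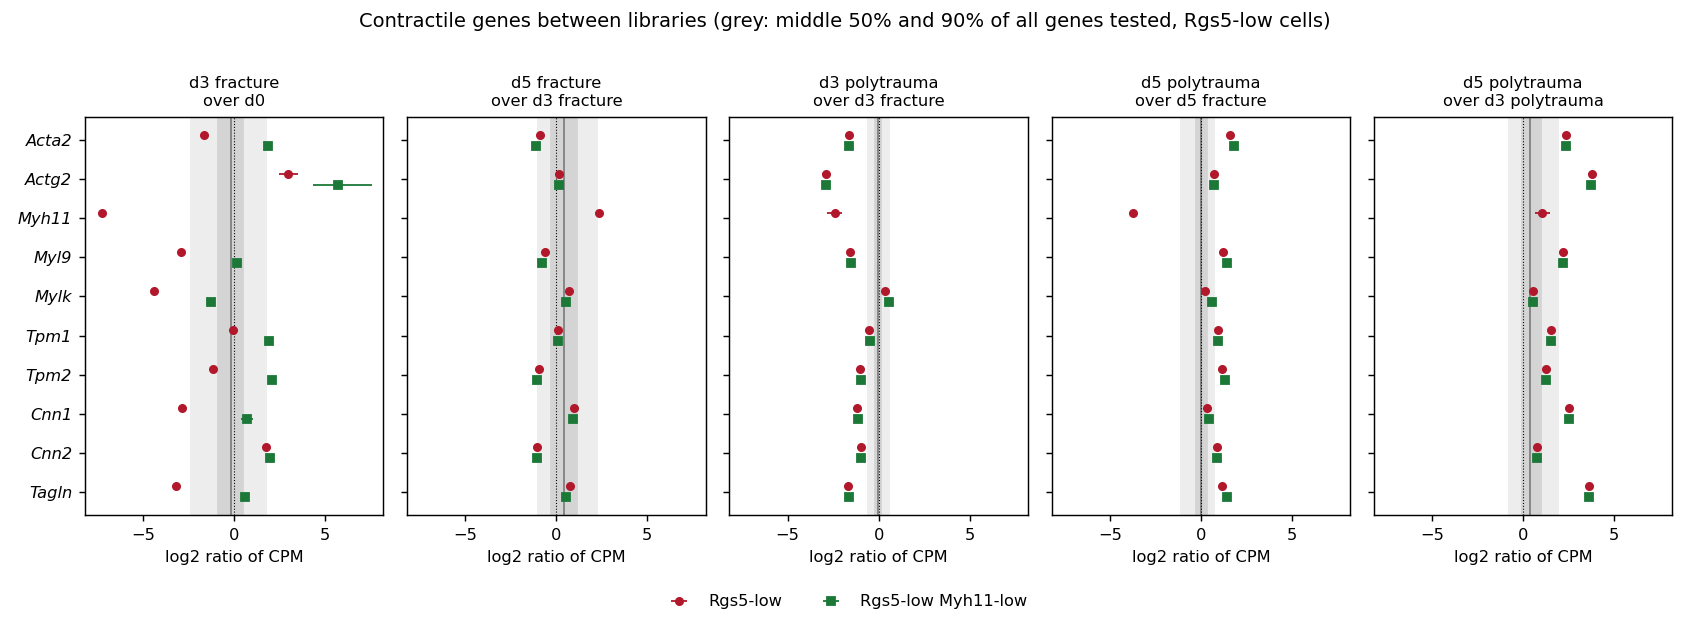
Log2 ratio of each gene's level in the 5 comparisons, for all Rgs5-low cells and for those with under 3 Myh11 UMIs, with bars for 95% counting intervals. Acta2 at d3 fracture against d0 is at -1.65 in all Rgs5-low cells and at 1.86 without the Myh11+ cells.

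Between d3 fracture and d5 fracture the genes parted. In Rgs5-low cells Myh11 was at least 2-fold higher at d5 (2.34, 2.16 to 2.53 on the log2 scale) and Cnn2 at least 2-fold lower (-1.07, -1.12 to -1.03). That was 1 gene of 10 in each direction, beside 29.9% of all features higher and 4.89% lower. Most Rgs5-low Myh11 UMIs of d5 fracture lay in 12 Myh11+ cells, whose sampling the interval does not cover. Acta2 was at -0.91 (-0.93 to -0.88), Tpm2 at -0.93 (-0.96 to -0.90) and Myl9 at -0.62 (-0.66 to -0.58), all short of 2-fold. Tagln, at 0.75 (0.72 to 0.79), and Cnn1, at 0.94 (0.83 to 1.06), were on the other side. Among the Myh11-low cells 0 of 9 genes were higher and 3 were lower, namely Acta2, Tpm2 and Cnn2, beside 29.9% and 4.96%. The median over all features was itself 0.43, so the ratios of the 10 genes, with a median of 0.12, are read against that shift: under median-of-ratios scaling, which moved it to -0.01, 1 gene was higher and 4 were lower, beside 16.3% and 15.9%. The signs of Tpm1 (0.10) and Actg2 (0.13) turned under that scaling to -0.35 and -0.31. In this comparison the d5 library also differed in cell make-up: the 3 chondrocyte markers summed to 2243 CPM in its Rgs5-low cells, beside 32.8 CPM at d3 fracture, and their part in the result was not tested.

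Polytrauma was compared with fracture at each time, the question being whether added muscle injury changes the response. At d3 the 2 libraries were alike over most features, with 1.62% lower and 1.46% higher in polytrauma. Against that background 7 of the 10 genes were lower in Rgs5-low cells and 0 were higher, at a median log2 ratio of -1.39 beside -0.03 over all features. The 7 were Actg2 (-2.89, -3.11 to -2.68), Myh11 (-2.40, -2.82 to -2.01), Tagln (-1.69, -1.74 to -1.64), Acta2 (-1.64, -1.66 to -1.62), Myl9 (-1.59, -1.64 to -1.55), Cnn1 (-1.19, -1.35 to -1.04) and Tpm2 (-1.0, -1.03 to -0.98). Cnn2 lay just short of the limit at -0.97 (-1.0 to -0.93) and Tpm1 was at -0.51 (-0.53 to -0.49). Mylk was the only gene of the 10 on the other side, at 0.37 (0.29 to 0.45), and its sign turned to -0.10 under a mean over cells. Without the Myh11+ cells 5 of 9 genes were lower and 0 higher, beside 1.51% and 1.54% of all features. Tpm2 then lay at -0.99 (-1.01 to -0.97). Marker sums in the Rgs5-low cells also differed between these libraries. Mural markers were at 151 CPM at d3 fracture and 391 CPM at d3 polytrauma. Chondrocyte markers were at 32.8 and 5.56 CPM and hematopoietic markers at 6.58 and 24.1 CPM in the same order. Their part in the result was not tested. With SC5 and SC9 as deposited the comparison takes another library, and 1 gene was higher and 1 lower.

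At d5 more of the genes were higher in polytrauma than lower. In Rgs5-low cells 4 of the 10 genes were higher in polytrauma than in fracture, namely Acta2 (1.61, 1.59 to 1.63), Myl9 (1.20, 1.16 to 1.23), Tpm2 (1.19, 1.16 to 1.21) and Tagln (1.16, 1.13 to 1.19). Myh11 was the 1 gene that was lower (-3.71, -3.92 to -3.50). Its Rgs5-low UMIs at d5 fracture lay mostly in 12 Myh11+ cells, whose sampling the interval does not cover. Over all features 1.33% were higher and 5.81% lower. Tpm1, Cnn2 and Actg2 lay between 1.66 and 1.89 times as high, and Cnn1 and Mylk were at 1.28 and 1.17 times. Myh11 was lower and Mylk higher in polytrauma at both times, but a mean over cells turned Mylk to -0.10 at d3 and -0.11 at d5. Once the Myh11+ cells were left out, the same 4 genes were higher and 0 of 9 were lower, beside 1.37% and 5.63%. Without barcodes found in more than 1 library, which removes most cells of the d5 fracture library, 1 gene was higher and 1 lower. In that library Acta2 was at 361 CPM in the 859 Rgs5-low cells with a barcode found elsewhere, whose median was 42639 UMIs, and at 506 CPM in the 578 others, whose median was 19227 UMIs. The d5 polytrauma library had 340 Rgs5-low cells with a barcode found elsewhere, at a median of 1264 UMIs. Chondrocyte markers summed to 2534 CPM in those 340 cells and to 155 CPM in the 11506 others. In d5 fracture they summed to 2611 CPM in the 859 cells and 1041 CPM in the 578. The filter thus removed the deeper cells of d5 fracture and shallow cells of d5 polytrauma. The chondrocyte markers, at 2243 CPM in d5 fracture and 163 CPM in d5 polytrauma, moved with this comparison too, and their part in it was not tested.

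Within polytrauma, from d3 to d5, 8 of the 10 genes were higher in Rgs5-low cells and 0 were lower. Over all features 23.1% were higher and 3.38% lower. The ratios were largest for Actg2 (3.76, 3.56 to 3.97) and Tagln (3.61, 3.56 to 3.65), followed by Cnn1 (2.49, 2.37 to 2.63), Acta2 (2.35, 2.33 to 2.37) and Myl9 (2.17, 2.13 to 2.21). The median was 1.85, beside 0.39 over all features, a shift that median-of-ratios scaling moved to -0.06, with 11.5% of features higher and 7.95% lower and 6 of the 10 genes higher and 0 lower. Cnn2 and Mylk stayed under 2-fold, at 0.76 (0.73 to 0.79) and 0.55 (0.49 to 0.61). Myh11, at 1.04 (0.64 to 1.46), turned to -0.33 under a mean over cells. Without the Myh11+ cells 7 of 9 genes were higher and 0 lower, beside 23.1% and 3.41%. In cells with at least 3 hematopoietic-marker UMIs, Acta2 was at 123 CPM at d3 polytrauma and at 1207 CPM at d5 polytrauma. The second value was the same level as in the Rgs5-low cells of that library. At d5 polytrauma these background cells had Actg2 at 46.2 CPM (30.5 to 67.3), above its level in the Rgs5-low cells. They had Tagln at 515 CPM (459 to 577) and Cnn2 at 183 CPM (150 to 221), intervals that held the Rgs5-low levels. With at least 10 hematopoietic-marker UMIs Acta2 was at 99.7 CPM and 426 CPM, in 84 and 23 cells. In those 23 cells Actg2 was at 47.8 CPM and Tagln at 162 CPM, the latter below its Rgs5-low level. These classes are an uncertain measure of free RNA, since they may hold other cells. The part of free RNA in the ratio was not tested. Chondrocyte markers also went from 5.56 CPM at d3 to 163 CPM at d5 polytrauma in the Rgs5-low cells and the 3 tenocyte markers from 28.1 to 120 CPM, and their part was not tested.

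Rgs5+ cells exceeded Rgs5-low cells of their own library for most of the genes. At least 2-fold higher levels were found for 9 of 10 genes at d0, beside 8.01% of all features, with Cnn2 the exception. The count was 9 at d3 fracture (10.9%), 10 at d5 fracture (7.67%), 9 at d3 polytrauma (8.06%) and 7 at d5 polytrauma (4.91%). Tpm1, Tpm2 and Cnn2 were the genes short of 2-fold at d5 polytrauma, with log2 ratios of 0.64, 0.82 and 0.28. The median log2 ratio was 1.75 at d0, where the Rgs5-low sum holds the Myh11+ cells, 3.28 at d3 fracture, 3.96 at d5 fracture, 4.05 at d3 polytrauma and 1.67 at d5 polytrauma. Between libraries, 7 of the 10 genes were highest in the Rgs5+ cells of d0, the exceptions being Tpm1, Cnn2 and Actg2. That count depends on the Rgs5 limit. With at least 10 Rgs5 UMIs Acta2 was highest at d5 fracture, at 7731 CPM beside 7055 CPM at d0. With Rgs5 called after thinning Acta2 was highest at d0, at 8390 CPM. The 10 genes together took 2.61% of the UMIs of Rgs5+ cells at d0, 1.47% at d3 fracture, 1.93% at d5 fracture, 0.988% at d3 polytrauma and 1.05% at d5 polytrauma. At d3 polytrauma the cell with the most UMIs of a gene held between 15.45% (Mylk) and 74.3% (Cnn1) of its Rgs5+ UMIs. Markers of other cells differed between these Rgs5+ groups: the chondrocyte markers summed to 1524 CPM at d5 fracture beside 8.03 CPM at d0, and the 5 endothelial markers to 138 CPM at d5 polytrauma beside 36.1 CPM at d0. Those of fibro/adipogenic and mesenchymal progenitors summed to 839 CPM at d0, 565 at d3 fracture, 780 at d5 fracture, 1088 at d3 polytrauma and 925 at d5 polytrauma. Hematopoietic markers summed to 75.8 CPM at d3 polytrauma beside 4.01 CPM at d0. Their part in the levels was not tested.

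The number of these genes detected in a cell differed between libraries. After thinning to 1000 UMIs, a cell with 3 or more of them made up 3.09% (2.57 to 3.68) of the Myh11-low cells at d0, 21.3% (20.2 to 22.4) at d3 fracture, 11.2% (9.63 to 13) at d5 fracture, 6.37% (5.77 to 7.01) at d3 polytrauma and 39.1% (38.3 to 40) at d5 polytrauma. The intervals of the 5 libraries were apart. None of the 10 was detected in 57.7%, 27.4%, 38.8%, 47.1% and 13.7% of the thinned cells in that order. Of the Myh11+ cells at d0, 99.7% had at least 3, a share fixed in part because Myh11 sets that class and is among the 10 genes. Single cells spread widely around these averages. In the Myh11-low cells, a cell's Acta2 CPM, taken without thinning, had a median of 0 at d0, 336 at d3 fracture, 40.0 at d5 fracture, 48.9 at d3 polytrauma and 722 at d5 polytrauma, and its 95th percentile was 634, 2287, 1575, 1042 and 3363. These values also depend on depth, whose median in the Myh11-low cells was 3492 UMIs at d0 and 15715 to 35547 after injury. At d3 fracture 75% of the cells lay under 922 CPM, below the 5th percentile of the Myh11+ cells of the same library, 3499 CPM. Over the 36 pairs of the 9 genes other than Myh11, Pearson's r across Myh11-low cells had a median of 0.18 at d0, 0.24 at d3 fracture, 0.35 at d5 fracture, 0.18 at d3 polytrauma and 0.32 at d5 polytrauma. The highest pair was Acta2 with Tpm2 at d3 fracture (0.64), d5 fracture (0.75) and d5 polytrauma (0.68), Acta2 with Myl9 at d3 polytrauma (0.56) and Tagln with Tpm2 at d0 (0.29). These correlations are descriptions over cells that share a library and differ in depth.

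**Figure D4:**
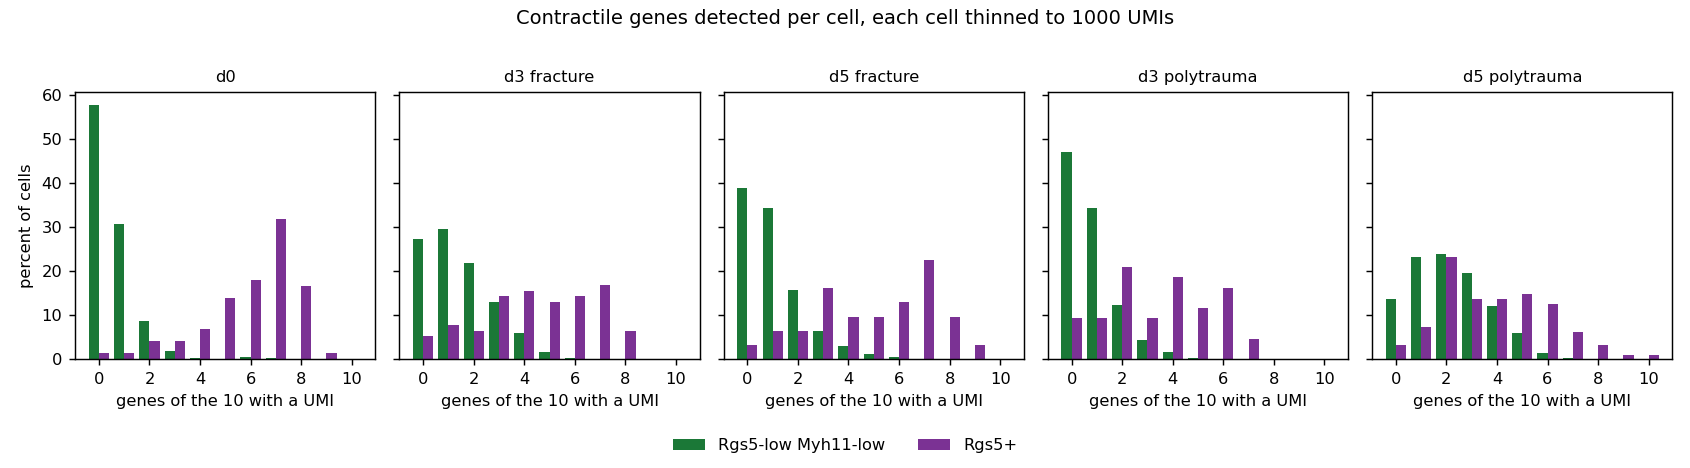
Share of cells (percent) by the number of the 10 genes detected after thinning to 1000 UMIs, with a panel for each of the 5 libraries. Bars are for Rgs5-low Myh11-low cells and for Rgs5+ cells. At least 3 genes were detected in 39.1% of the Rgs5-low Myh11-low cells at d5 polytrauma, 21.3% at d3 fracture and 3.09% at d0.

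Other parts of the contractile machinery were read from lists drawn up by role. Among 10 other smooth muscle genes that passed the filter, 7 were lower and 0 higher at d3 fracture than at d0 in Rgs5-low cells, beside 22.4% and 13.5% of all features. Without the Myh11+ cells 5 were lower and 2 higher, beside 21.7% and 12.7%. At d5 fracture against d3 fracture 6 were higher and 3 lower, beside 29.9% and 4.89%. Csrp1, a LIM-domain protein of smooth muscle, was at 402 CPM at d0, 305 at d3 fracture, 125 at d5 fracture, 122 at d3 polytrauma and 205 at d5 polytrauma. In the Myh11-low cells Csrp1 was at 111 CPM at d0 and 302 at d3 fracture, so the log2 ratio of d3 fracture to d0 turned from -0.40 to 1.45. Cald1, caldesmon, was between 562 and 598 CPM in 4 libraries and at 952 CPM at d5 polytrauma when all Rgs5-low cells were summed. In the Myh11-low cells Cald1 was at 324 CPM at d0, 582 at d3 fracture and 950.1 at d5 polytrauma, and the log2 ratio of d3 fracture to d0 was 0.85 in place of 0.06. A list of 16 genes held non-muscle actins, myosins, tropomyosins and other actin-associated proteins. Of these, 5 were higher and 2 lower at d3 fracture than at d0, beside the same 13.5% and 22.4%. Actg1, cytoplasmic gamma actin, was at 1609 CPM at d0 and 4777 CPM at d3 fracture, whereas Actb, cytoplasmic beta actin, was at 4789 and 5096 CPM. At d3 polytrauma against d3 fracture 0 of the 16 passed 2-fold in either direction, beside 1.46% of all features higher and 1.62% lower. A count of 0 is near those shares and does not set the list apart. The median log2 ratio of the 16 genes was -0.39, beside -0.03 over all features.

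The genes most like the group were sought among all features past the filter. Over 10 groups, the Rgs5+ and Rgs5-low cells of the 5 libraries, the highest Pearson's r to the mean log2(CPM + 1) of the 10 genes belonged to Gng11 (0.98), Notch3 (0.97), Lmod1 (0.97), Capza2 (0.97) and Gucy1a1 (0.96). Lmod1 encodes a leiomodin of smooth muscle, Notch3 a receptor of mural cells and Gucy1a1 a subunit of the nitric oxide receptor. Across Rgs5-low cells, the highest median r over the 5 libraries with the summed genes belonged to Cald1 (0.51), Csrp1 (0.49), Actg1 (0.49), Myl6 (0.47) and Tpm4 (0.44). Without the Myh11+ cells the leading genes were Actg1 (0.50), Tpm4 (0.48), Myl12a (0.46), Lgals1 (0.45) and Csrp1 (0.45), of which the first 3 are the non-muscle actin, tropomyosin and light chain. For Actg1 the r was 0.00 at d0 and between 0.49 and 0.60 in the 4 injured libraries. Points of each correlation share libraries and depth, and no test was made.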

How the data were processed

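Libraries were made by the authors with 10x Genomics 3′ kits from FACS-sorted GFP+ hindlimb muscle cells. Per the submitters' processing notes, reads were processed with Cell Ranger on mm10 and later analysed in Seurat 3.1.2, and the matrix headers name version 3.1.0. The deposited values are whole-number UMI counts per gene and cell with no normalization. Doublets were not called, and the authors' doublet treatment is not given in the sources used here.

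From these counts, cells were filtered, divided at 3 Rgs5 UMIs and summed per library. Levels are CPM with exact Poisson intervals, ratios have conditional exact intervals, and shares have Clopper-Pearson intervals, all at 95%. PCR and the sampling of cells and of animals are not covered. With 1 library per condition no test was made, and a 2-fold difference in level was the call. Shares of cells were also taken after thinning each cell to 1000 UMIs. Named genes were the 10 contractile genes, up to 4 genes of each list by mean level, and the 5 most alike non-members. Gene positions were from GENCODE M21. Scripts ran in Python 3.11.15 with numpy 2.4.6, scipy 1.17.1 and pandas 2.3.3, and were tested on simulated data. The alternatives were other scaling, filters, limits, barcodes and labels. The genes and lists were chosen with earlier results of these data known, and the Myh11 and Notch3, Des and Pln divisions were added after the data were seen. The list of regulators of contraction is not reported here.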

Additional observations from a re-analysis of the deposited data

Results flagged for a closer look

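The difference between d5 and d3 had opposite signs after fracture and after polytrauma for 4 of the 10 genes in Rgs5-low cells. Over 7458 features with a ratio in both, 12.7% were lower at d5 after fracture and higher after polytrauma, as these 4 genes were, and 7.43% were the other way round. The log2 ratio of d5 to d3 was -0.91 after fracture and 2.35 after polytrauma for Acta2. For Myl9 it was -0.62 and 2.17. For Tpm2 it was -0.93 and 1.26, and for Cnn2 it was -1.07 and 0.76. The same 4 genes had opposite signs in the Rgs5-low cells with under 3 Myh11 UMIs, beside 12.7% of features. Under median-of-ratios scaling Tpm1 (-0.35 and 1.08) and Actg2 (-0.31 and 3.31) joined them, making 6 of 10 genes, beside 7.35% of features. The ratio after polytrauma was above the ratio after fracture for 8 of 10 genes, and for 9 of 9 genes without the Myh11+ cells and Myh11, beside 54.3% of features in both cases. This difference was not tested, since each condition was 1 library, and it rests on the conditions given here to SC5 and SC9.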

How the results depend on the processing

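With the Myh11+ cells left out of the Rgs5-low sum, the d3 fracture to d0 ratios of Acta2, Tagln, Myl9, Tpm2, Cnn1 and Tpm1 turned from lower to higher. Acta2 became 1.86, Tagln 0.59, Myl9 0.14, Tpm2 2.07 and Cnn1 0.70. Tpm1 went from slightly lower to at least 2-fold higher. Mylk stayed lower at -1.25, and Actg2 and Cnn2 were higher both ways. The median, -2.25 over 10 genes, became 1.86 over the 9 genes other than Myh11. With median-of-ratios scaling added the median was 2.15, Acta2 2.15, Tagln 0.88, Myl9 0.43, Tpm2 2.36 and Cnn1 0.99, with 5 genes past 2-fold. With a mean over cells added, the median was 1.48, Acta2 1.48, Tagln 0.29, Tpm2 1.63 and Cnn1 0.48. Under the Notch3, Des and Pln limit the median was 0.36, Acta2 0.99 and Tpm2 1.28. Genes lowest at d3 polytrauma numbered 7 in Rgs5-low cells and 3 without the Myh11+ cells, 3 with median-of-ratios scaling and 4 with a mean over cells.

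For d5 against d3 fracture, 2 genes passed 2-fold in either direction. The number was 5 under median-of-ratios scaling, where the median was -0.33, 4 without Myh11+ cells under that scaling, where it was -0.37, 4 without shared barcodes and 8 at a fold of 1.5. For d5 polytrauma against d5 fracture, 5 genes passed, 2 under a mean over cells, 2 without shared barcodes and 8 at a fold of 1.5. A mean over cells reversed Myh11 in d5 against d3 polytrauma (-0.33).

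With SC5 and SC9 as deposited, 7 genes passed for d5 against d3 fracture (median -1.39, Myh11 -2.40), 2 for polytrauma against fracture at d3 (median 0.12, Tagln 0.75, Cnn1 0.94, Actg2 0.13, Myh11 2.34), 8 at d5 (Myh11 1.04) and 5 for d5 against d3 polytrauma (Myh11 -3.71). The cause of the changes with scaling and barcodes was not tested. No paired analysis was possible because each condition was 1 library. Depth limits the d0 library most, at a median of 3640 UMIs.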

Other observations

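In Rgs5-low Myh11+ cells, the class that held most contractile-gene UMIs at d0, the level of Acta2 was 12771 CPM in 639 cells at d0, 11399 CPM in 39 cells at d3 fracture, 17286 CPM in 12 cells at d5 fracture, 8293 CPM in 5 cells at d3 polytrauma and 5343 CPM in 18 cells at d5 polytrauma. Tagln in the same cells was at 6324, 3810, 11455, 1940 and 3369 CPM. Cnn1 was at 466 CPM (441 to 491) at d0, 392 CPM (309 to 490) at d3 fracture, 466 CPM (371 to 578) at d5 fracture, 268 CPM (116 to 527) at d3 polytrauma and 264 CPM (211 to 326) at d5 polytrauma, with each neighbour in the order overlapping the next. Myl9 was highest at d0, at 7206 CPM, and lowest at d5 polytrauma, at 1131 CPM. Few cells carry the values after injury. Markers of other cells differed within this class. The 5 markers of fibro/adipogenic and mesenchymal progenitors summed to 699 CPM at d5 polytrauma and 396 CPM at d0. They summed to 239 CPM at d3 fracture, 191 CPM at d5 fracture and 201 CPM at d3 polytrauma. Their part in the levels was not tested.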
